A study of Danio rerio with 2 samples.

Results

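Fatty acid oxidation and peroxisome genes were compared between 1 pooled liver library of adult zebrafish and 1 pooled library of whole zebrafish embryos. The genes were chosen by name: 38 of the 27098 features in the deposited gene tables carried a name of the acyl-CoA synthetase (acsl), fatty acid transport protein (slc27a), carnitine palmitoyltransferase (cpt1, cpt2), acyl-CoA dehydrogenase or oxidase (acad, acox), hydratase, dehydrogenase, thiolase, isomerase and reductase families of beta-oxidation, of hacl1 or crot, or of a peroxin (pex and a number), or were zgc:56036, which is acaa2. All 38 had at least 10 reads in a pool, and 37 had them in both. A symbol in brackets after a gene is its name in the deposited tables where that differs.

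Both pools came from fish treated over 48 h with 9 hepatotoxic compounds. The compounds were valproic acid, amiodarone, tetracycline, acetaminophen, 17a-ethynylestradiol, cyclosporine A, thioacetamide, paraquat and chlorpromazine. An embryo sample was itself a pool of 15 embryos, and RNA of all samples of a source was mixed in equal amounts before sequencing, so that no value belongs to a single compound. Strain, sex, embryo age and adult age, and whether unexposed fish entered the pools, were not stated in the labels, and no unexposed library was analysed here.

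Long-chain fatty acids are first activated to acyl-CoA esters by acsl and slc27a enzymes. They then enter mitochondria through the carnitine shuttle and lose acetyl-CoA units in repeated rounds of dehydrogenation, hydration, a second dehydrogenation and thiolysis. Peroxisomes shorten very long and branched chains with an oxidase in place of the first dehydrogenase, and peroxins build the organelle and import its enzymes. The liver is a main site of both routes in vertebrates, and several of the compounds, among them valproic acid, amiodarone and tetracycline, are known to disturb mitochondrial fatty acid oxidation in mammals.

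Total reads assigned to genes came to 11408727 in the embryos and 13020149 in liver. Each source has 1 library, so the differences lack a replicate check and are given without p-values. Values in brackets after a ratio are exact 95% intervals, which cover counting error only. CPM denotes reads per 1000000 gene reads. Calls required the whole interval of the CPM ratio to reach 4-fold or more, with 10 reads or more on the higher side. Markers of hepatocytes, 11 genes, summed to 112740 CPM in liver and 4250 CPM in the embryos. Skeletal muscle markers, also 11 genes, summed to 50539 CPM in the embryos and 23.0 CPM in liver. The liver pool had reads for all 9 exocrine pancreas markers (1153 CPM, against 4239 CPM in the embryos) and all 5 intestine markers (866 against 1506 CPM). Fewer cells of a type and less RNA per cell cannot be told apart in such pools, and the part of cell composition in the results below was not tested.

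As a group the 38 genes took a larger share of the liver reads. They summed to 19165 reads in the embryos, 0.168% of all gene reads (0.166 to 0.170), and to 58529 reads in liver, 0.450% (0.446 to 0.453). A single gene, slc27a2a (slc27a2), made up 21.0% of their liver reads and 4.17% of their embryo reads. With library totals the ratio of liver to embryo exceeded 1 for 30 of the 38 genes, against 17.4% of all 21750 measured features. With the trimmed mean of M-values factors described below it did so for 34 of the 38, against 44.1% of all features. The median log2 ratio was 0.79 over the 38 genes and -1.60 over all measured features, a distance of 2.38 that does not depend on the scaling of the libraries. In all, 34 of the 38 lay above the median of all features, and the 4 below it were acsl genes.

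Differences past 4-fold were few and went both ways. Higher in liver were slc27a6, slc27a2a, cpt1b and ehhadh, 4 of 38 where 3.35% of all measured features were called in that direction. Higher in the embryos were acsl1a (acsl1), acsl3a and acsl4b (acsl4l), 3 of 38 where the background was 30.9%. The balance rests on the scaling. The trimmed mean of M-values (TMM) shifted every log2 ratio toward liver by 1.35, and then 18 of the 38 were higher in liver (8.06% of all features) and 2 in the embryos (15.8%). All 4 liver calls and those of acsl1a and acsl3a were kept.

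**Figure D1:**
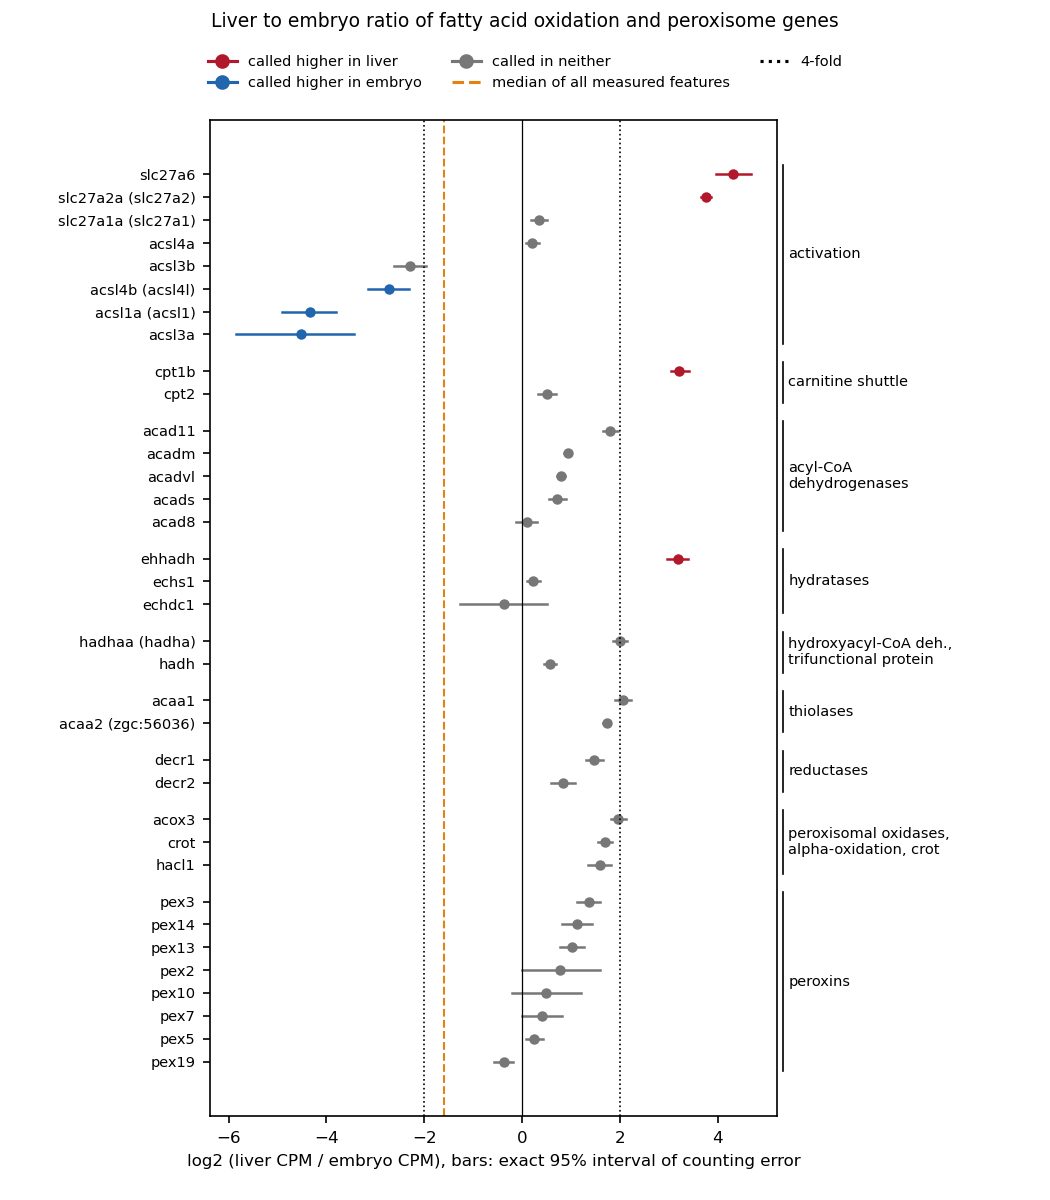
Log2 ratio of liver over embryo CPM for 35 of the 38 genes, grouped by role, with points for the ratio and bars for the exact 95% counting interval. The 4 genes in red lie wholly beyond the right dotted 4-fold line and the 3 in blue beyond the left one, and most of the other points lie between 0 and 2, to the right of the dashed median of all measured features at -1.60.

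With library totals activation genes held 5 of the 7 calls, and among the 38 the direction went with the family. Of the 8 activation genes, 2 were called higher in liver and 3 in the embryos, beside 3.35% and 30.9% of all measured features. With TMM factors they held only 2 of the 18 liver calls, and the 2 embryo calls. The slc27a genes encode fatty acid transport proteins with very-long-chain acyl-CoA synthetase activity. In liver slc27a2a had 12309 reads and in the embryos 799, or 945 against 70.0 CPM, a ratio of 13.5 (12.6 to 14.5). The region of slc27a2a overlaps another feature. For slc27a6 the counts were 1544 liver and 68 embryo reads, or 119 against 5.96 CPM, and its ratio of 19.9 (15.6 to 25.8) was the highest of the 38. The remaining gene, slc27a1a (slc27a1), had 729 liver and 504 embryo reads (56.0 against 44.2 CPM) and a ratio of 1.27 (1.13 to 1.42), called in neither direction.

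The long-chain acyl-CoA synthetases gave the lowest ratios of the 38 genes. Mammalian ACSL1 is a main synthetase of liver, heart and fat, and zebrafish acsl1a had 528 reads in the embryos and 30 in liver, or 46.3 against 2.30 CPM, 20.1-fold higher (13.9 to 30.1) in the embryos. With 140 embryo and 7 liver reads, or 12.3 against 0.538 CPM, acsl3a was 22.8-fold higher (10.8 to 57.8) in the embryos. None of its 7 liver reads fell in an exon, 1 of them had a single position, and its liver RPKM (exon reads per kilobase of exon and 1000000 gene reads) is listed at 0. The acsl4 enzymes favour arachidonic acid in mammals, and acsl4b had 336 embryo and 58 liver reads, or 29.5 against 4.45 CPM, 6.61-fold higher (4.99 to 8.89) in the embryos, a call lost with TMM factors. Its paralog acsl4a differed from it, with 804 embryo and 1063 liver reads and a ratio of 1.16 (1.06 to 1.27). Just short of a call was acsl3b, with 416 embryo and 97 liver reads, at 4.89-fold (3.92 to 6.17) toward the embryos.

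The acsl and slc27a families hold further genes that the deposited tables list under clone or locus names, found through current RefSeq symbols after the files were seen. Among them acsl5 (zgc:92083) had 1441 embryo and 241 liver reads and was 6.82-fold higher (5.95 to 7.85) in the embryos, a call lost with TMM factors, and acsl2 (LOC100332846), with 578 and 45, was 14.7-fold higher (10.8 to 20.3). Another, acsl1b (zgc:101071), had 550 embryo and 219 liver reads and was not called. So 5 of 8 acsl genes were higher in the embryos with library totals, 3 of 8 with TMM factors, and 0 in liver under either. The share of all measured features called higher in the embryos was 30.9% and 15.8% under these scalings. Of the slc27a genes, slc27a2b (si:dkey-147f23.1), with 3247 liver and 224 embryo reads, was 12.7-fold higher (11.1 to 14.6) in liver and slc27a1b (zgc:153860), with 832 and 95, 7.67-fold higher (6.20 to 9.59). The exception was slc27a4 (zgc:112138), a transporter that mammals need for the skin barrier, with 285 embryo and 16 liver reads and 20.3-fold higher (12.3 to 36.1) in the embryos. That made 4 of 6 slc27a genes higher in liver and 1 in the embryos under both scalings, where 3.35% and 8.06% of all measured features were called higher in liver.

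Summed over those genes, the acsl family had a ratio below 1 and the slc27a family one above 1 under both scalings. The median log2 ratio of all measured features was -1.60 with library totals and -0.25 with TMM factors. A ratio below 1 is therefore not particular to the acsl genes. The 8 acsl genes came to 4793 embryo and 1760 liver reads, a liver to embryo ratio of 0.322 (0.304 to 0.340) with library totals and 0.821 with TMM factors. The 6 slc27a genes came to 1975 embryo and 18677 liver reads, a ratio of 8.29 (7.91 to 8.68) and 21.2 with TMM factors. On the RPKM scale acsl5 was the most abundant acsl gene of the embryos, at 37.8 RPKM or 31.9% of the family, and acsl4a that of liver, at 20.5 RPKM or 58.2%. For the slc27a family it was slc27a2a in both, with 41.1% in the embryos and 62.4% in liver, where it reached 363 RPKM.

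**Figure D2:**
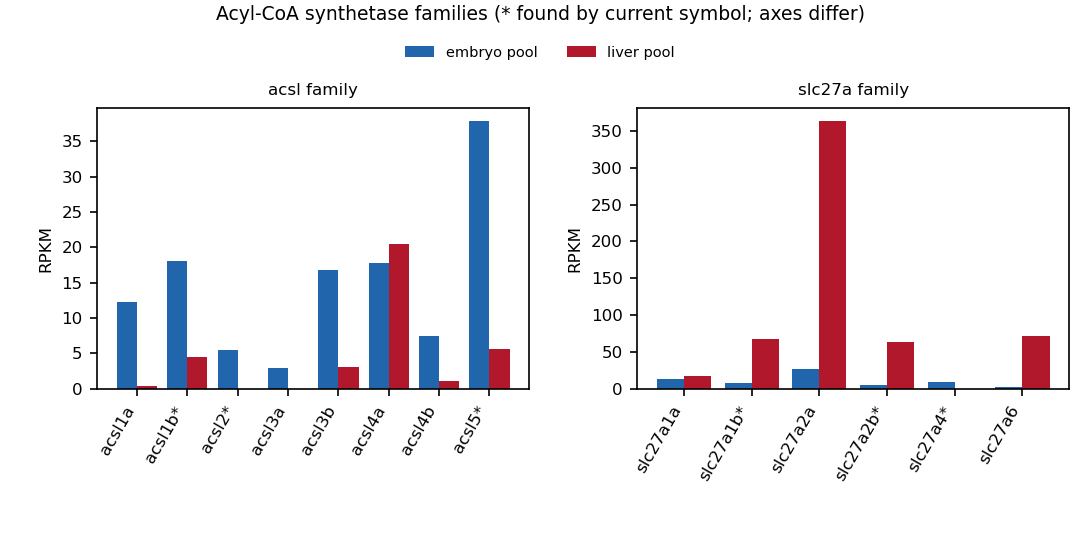
Deposited RPKM of the acsl genes (left) and slc27a genes (right) in the embryos (blue bars) and liver pool (red bars), 1 library each, with an asterisk for genes found by their current symbol. The left panel is led by acsl5 of the embryos at 37.8 RPKM and the right one by slc27a2a of liver at 363 RPKM, on axes of different range.

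In the carnitine shuttle cpt1b was called higher in liver, while cpt1aa of the same step and cpt2 were not. Carnitine palmitoyltransferase 1 on the outer mitochondrial membrane controls the entry of long chains, and cpt1b had 2815 reads in liver and 265 in the embryos, or 216 against 23.2 CPM, 9.31-fold higher (8.20 to 10.6) in liver. In mammals CPT1B is the form of muscle and CPT1A that of liver. The feature of cpt1aa (LOC558088) had 558 liver and 300 embryo reads and a ratio of 1.63 (1.41 to 1.88), and on the RPKM scale liver held 69.0 of cpt1b and 15.4 of cpt1aa. In the liver pool skeletal muscle markers summed to 23.0 CPM and the 4 heart markers found to 1.31 CPM. Of these 4, cmlc1 and nppa were at 0 and the other 2 had reads. The cell type that the cpt1b reads came from was not tested. Only 58.0% of the liver reads and 55.8% of the embryo reads of cpt1b fell in annotated exons, and its ratio was 9.19 with exon reads and 6.09 (4.68 to 8.05) with exon-exon junction reads. The inner membrane enzyme gene cpt2 had 683 liver and 421 embryo reads (52.5 against 36.9 CPM) and a ratio of 1.42 (1.26 to 1.61).

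The acyl-CoA dehydrogenases include the enzymes that open each round of mitochondrial oxidation. None of their 5 genes passed 4-fold with library totals, beside 3.35% of all measured features called higher in liver and 30.9% in the embryos. The medium-chain gene acadm had 2364 embryo and 5149 liver reads (207 against 395 CPM), a ratio of 1.91 (1.82 to 2.0), and was the most abundant of the 38 genes in the embryos at 126 RPKM. The very-long-chain gene acadvl had 1918 embryo and 3797 liver reads (168 against 292 CPM) and a ratio of 1.73 (1.64 to 1.83). These 2 ratios, and that of the short-chain gene acads at 1.65 (1.46 to 1.86), were close to each other. Isobutyryl-CoA dehydrogenase acad8, which belongs to valine breakdown, had 337 embryo and 410 liver reads and a ratio of 1.07 (0.921 to 1.24). The highest of the 5 was acad11, with 416 embryo and 1661 liver reads and a ratio of 3.50 (3.14 to 3.90). It was called higher in liver with unique reads and with TMM factors. Its region overlaps another feature in the tables, and 66.1% of its embryo reads had a single position. With TMM factors acadm and acadvl were called higher in liver too, so that 3 of the 5 were, beside 8.06% of all features.

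The following steps spanned a wider range. The short-chain hydratase gene echs1 had 846 embryo and 1134 liver reads (74.2 against 87.1 CPM) and a ratio of 1.17 (1.07 to 1.29), and hadh, which oxidises short-chain hydroxyacyl-CoA, 886 and 1496 and a ratio of 1.48 (1.36 to 1.61). The alpha subunit of the long-chain trifunctional protein has a pair of genes. For hadhaa (hadha) there were 475 embryo and 2162 liver reads (41.6 against 166 CPM), a ratio of 3.99 (3.61 to 4.41) that straddled the threshold, while hadhab (zgc:158138) had 1494 and 1879 and a ratio of 1.1 (1.03 to 1.18). On the RPKM scale they stood at 14 and 45.5 in the embryos and at 51.3 and 50.3 in liver. The thiolase gene acaa2 (zgc:56036) had 1757 embryo and 6659 liver reads (154 against 511 CPM), a ratio of 3.32 (3.15 to 3.50), and ranked second of the 38 by RPKM in both pools. The mitochondrial dienoyl-CoA reductase gene decr1, needed for unsaturated chains, had 346 embryo and 1098 liver reads (30.3 against 84.3 CPM) and a ratio of 2.78 (2.46 to 3.15). The gene of the decarboxylase echdc1, which removes ethylmalonyl-CoA, had 25 embryo and 22 liver reads and a ratio of 0.771 (0.414 to 1.42).

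**Figure D3:**
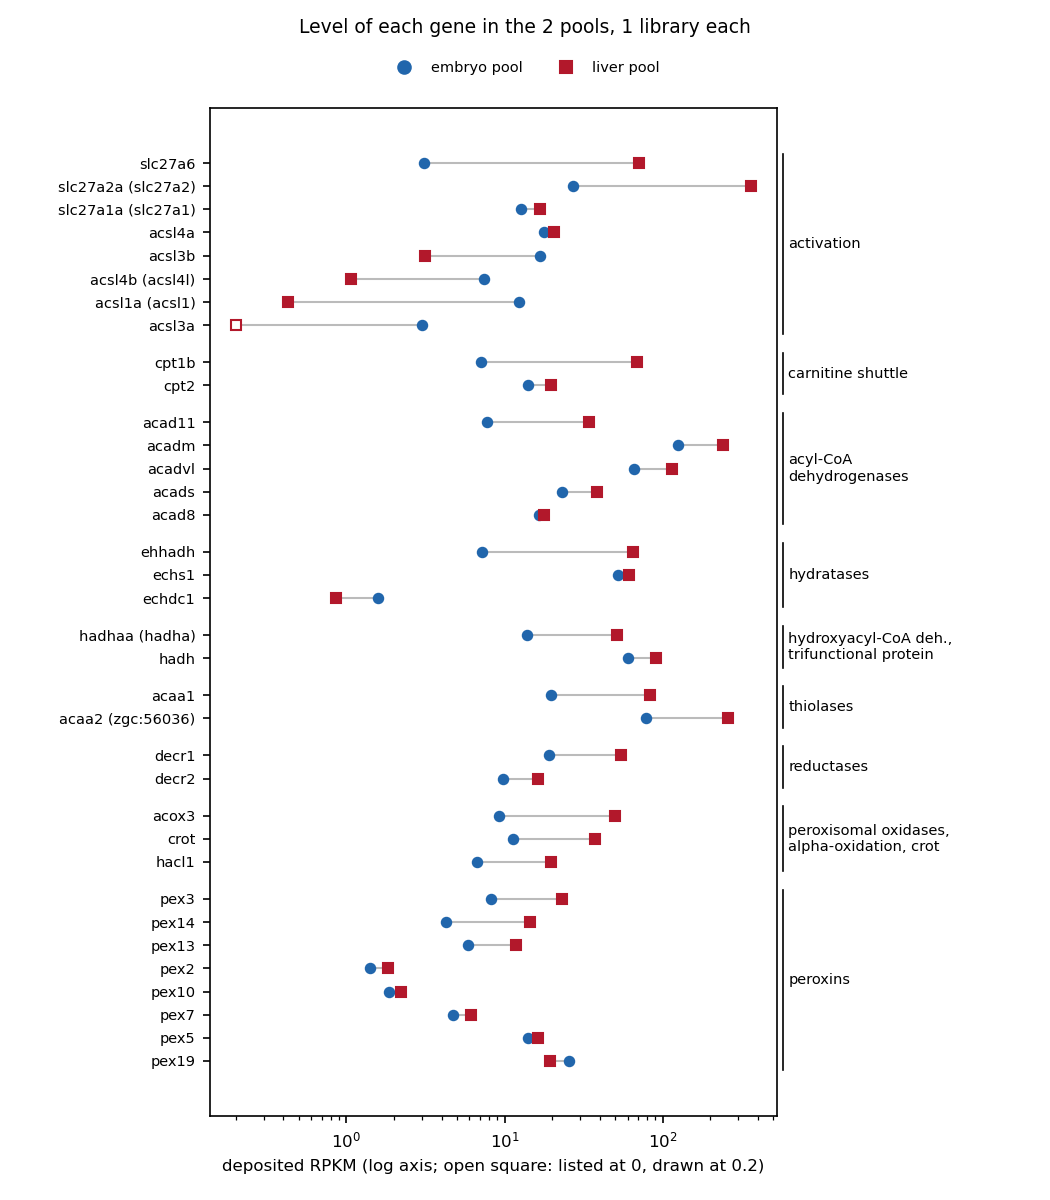
Deposited RPKM of 35 of the 38 genes in the embryos (blue circles) and liver pool (red squares) on a log axis, grouped by role, with an open square at 0.2 for acsl3a, listed at 0 in liver. The acsl genes other than acsl4a lie lower in liver, slc27a2a is the highest point at 363 RPKM, and the highest peroxin point is at 25.5 RPKM.

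Genes of peroxisomal oxidation had the higher ratios as a group. Its 7 genes had a median log2 ratio of 1.69. The 11 of mitochondrial oxidation, with acad8 of valine breakdown counted among them, had one of 0.80. Each group had 1 call, where 3.35% of all measured features were called higher in liver. No test was made between the groups, which were formed after the values were seen. The call of the peroxisomal group was that of ehhadh, the bifunctional hydratase and dehydrogenase. It had 190 embryo and 1966 liver reads, or 16.7 against 151 CPM, and was 9.07-fold higher (7.81 to 10.6) in liver, where 80.2% of its reads had a single position. The thiolase gene acaa1 had 377 embryo and 1790 liver reads (33.0 against 137 CPM) and a ratio of 4.16 (3.72 to 4.66), just outside the call. The branched-chain oxidase gene acox3 stood at 3.91 (3.52 to 4.36), from 421 and 1880 reads, and was called higher in liver with exon reads and with unique reads.

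The remaining peroxisomal enzyme genes did not reach a call with library totals. Carnitine octanoyltransferase crot, which readies shortened chains for export to mitochondria, had 465 embryo and 1717 liver reads and a ratio of 3.24 (2.92 to 3.59). The lyase gene hacl1, of the alpha-oxidation of phytanic acid, had 198 and 679 and a ratio of 3.0 (2.56 to 3.54). The peroxisomal reductase gene decr2 had the lowest ratio of the 7, at 1.78 (1.5 to 2.11) from 209 and 424 reads. With TMM factors 6 of these 7 genes were called higher in liver, all but decr2, as were 6 of the 11 mitochondrial ones and 8.06% of all measured features.

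**Figure D4:**
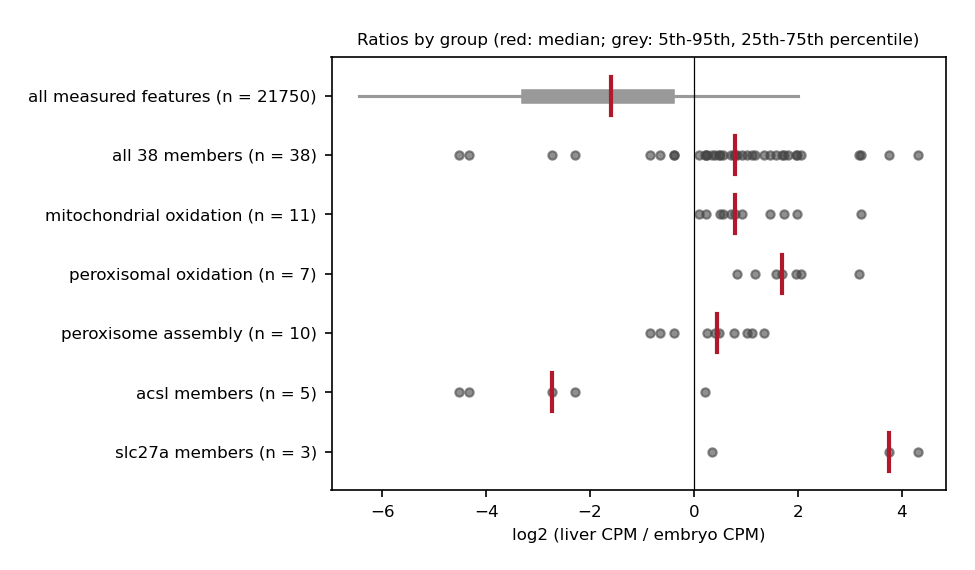
Log2 ratios of liver over embryo CPM for all measured features (grey bar and line for the 25th to 75th and 5th to 95th percentiles), the 38 members and their subgroups (points), with red bars for medians. The medians stand at 1.69 for peroxisomal oxidation, 0.80 for mitochondrial oxidation, 0.45 for peroxisome assembly, -2.72 for the acsl genes and 3.75 for the slc27a genes.

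The peroxin genes, whose products build peroxisomes, had a lower median ratio than the genes of peroxisomal oxidation, a difference that was not tested. None of the 10 peroxin genes was called with library totals, beside 3.35% of all measured features called higher in liver and 30.9% in the embryos. Their median log2 ratio was 0.45, and 3 were called higher in liver with TMM factors, beside 8.06% of all features. The 3 were pex3, pex14 and pex13. The membrane protein receptor gene pex3 had 210 embryo and 615 liver reads (18.4 against 47.2 CPM) and a ratio of 2.57 (2.19 to 3.02). For the docking complex, pex14 had 125 and 310 reads and a ratio of 2.17 (1.76 to 2.70), and pex13 195 and 452 and a ratio of 2.03 (1.71 to 2.42). The cargo receptor genes pex5 and pex7, which bind the 2 kinds of import signal, stood at 1.19 (1.06 to 1.35) and 1.33 (0.994 to 1.77). The RING-finger genes pex2 and pex10 had 22 and 30 embryo reads and 43 and 48 liver reads, with ratios of 1.71 (1.0 to 3.01) and 1.40 (0.870 to 2.29), too few reads to place them on either side of 2-fold. The chaperone gene pex19 had 488 embryo and 429 liver reads (42.8 against 32.9 CPM), of which 17.2% had a single position in each pool, so its ratio of 0.770 (0.675 to 0.879) is uncertain. A further gene of peroxisome division, pex11g (zgc:114079), had 48 embryo and 289 liver reads and a ratio of 5.28 (3.88 to 7.32), whereas pex11a (si:dkeyp-84g1.1) stood at 1.07 (0.819 to 1.40).

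Most calls were the same in each class of reads. With no call counted as an outcome, 36 of the 38 outcomes were the same with unique reads and 36 with exon reads. With exon-exon junction reads, which come from spliced transcripts, 37 were the same. These counts include the 31 genes uncalled with total reads. In 3 of the 38, both pools had under 10 junction reads, so no call was possible with them. The genes that gained a liver call were acad11 and acox3 with unique reads and acox3 with exon reads, acsl3b gained an embryo call with exon reads, and acsl4b lost its embryo call with junction reads, at 17 liver and 59 embryo reads. The same rules called 3.45% of all measured features higher in liver and 30.3% higher in embryos with unique reads, 3.38% and 36.4% with exon reads, and 2.94% and 29.8% with junction reads. With size factors the background was 8.19% and 15.5% beside 18 and 2 of the 38, and with a 2-fold threshold 6.46% and 52.4% beside 14 and 4. The counts of 4 and 3 did not move with intervals from 0.5 of the reads (2.87% and 26.0% of all features), with no minimum of reads (2.89% and 26.7%) or with a minimum of 50 (3.84% and 33.9%). Reads with several positions touched 10 of the 38 genes, those with under 90% unique reads in a pool, among them slc27a2a with 82.4% in liver and 79.9% in the embryos.

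**Figure D5:**
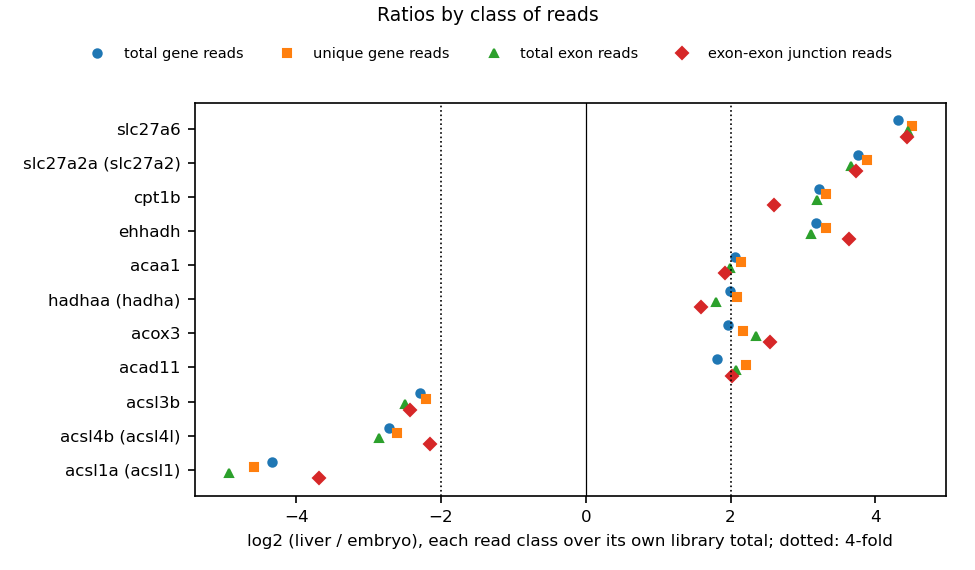
Log2 ratio of liver over embryo for 11 genes at or near a call, computed from total gene, unique gene, total exon and exon-exon junction reads, each over its own library total. The slc27a6, slc27a2a, cpt1b and ehhadh points lie right of the 4-fold line in every class, and those of acaa1, hadhaa, acox3 and acad11 lie on both sides of or close to it.

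A list of other genes of these routes gave 79 measured genes, of which 13 were higher in liver and 2 in the embryos, while 64 were uncalled, beside 3.35% and 30.9% of all measured features. Their median log2 ratio was 0.51, and TMM factors gave 33 and 2 calls, beside 8.06% and 15.8% of all features. Peroxisomal transport and matrix enzymes, 35 of the 79 measured genes, gave 9 of the 13 liver calls, and 25 of the 35 were uncalled. Among the 9 were genes of amino acid and purine enzymes. Of these, agxta (agxtl) had 8297 liver and 431 embryo reads and a ratio of 16.9 (15.3 to 18.6). The gene agxtb (agxt) stood at 7.59 (7.27 to 7.93) and the urate oxidase gene uox at 15.6 (14.3 to 17.1). The channel protein gene pxmp2 (zgc:92599), of the peroxisomal membrane, had 1125 liver and 69 embryo reads and a ratio of 14.3 (11.2 to 18.5), and acbd5a, an acyl-CoA binding protein of that membrane, stood at 5.13 (4.61 to 5.73). The others of the 9 were scp2a (scp2), cat, nudt7 (LOC100329471) at 6.66 (4.78 to 9.51), and dao.3, with 37 liver reads and 0 embryo reads, for which 3 reads in place of 0 give 10.8-fold and the exact interval a lower limit of 8.36-fold, a call lost with intervals from 0.5 of the reads. The catalase gene cat had the highest liver RPKM of the list, at 910, followed by agxtb at 809, and in the embryos agxtb led at 114 with idh1 next at 102. One member of this group was higher in the embryos, far1, which makes fatty alcohols for ether lipids, with 358 embryo and 19 liver reads, 21.5-fold (13.6 to 36.1), although only 32.1% of its embryo reads fell in exons.

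Paralogs of the ketone body enzyme succinyl-CoA transferase were divided between the pools. The mammalian enzyme serves ketone use outside the liver. Here oxct1a had 825 embryo and 6 liver reads and was 157-fold higher (71.8 to 429) in the embryos. None of those 6 liver reads fell in an exon, and the liver RPKM of oxct1a is listed at 0, so the size of its fold is uncertain. Its paralog oxct1b had 562 embryo and 9626 liver reads and was 15.0-fold higher (13.8 to 16.4) in liver, at 372 RPKM against 24.6. Both calls were kept with TMM factors, and 78.5% of the liver reads of oxct1b had a single position. Of the 12 measured thioesterases, 2 were higher in liver and 0 in the embryos, beside 3.35% and 30.9% of all measured features. The 2 were acot16 (si:dkeyp-89c11.1) at 16.4 (13.5 to 20.0) and acot11a (acot11) at 7.56 (6.22 to 9.26). The other 10 were uncalled. A ratio below 1 was found for 8 of the 12, and the median log2 ratio of the group was -0.84. The median of all measured features was lower, at -1.60, and 8 of the 12 lay above it. With TMM factors the medians were 0.515 for the group and -0.25 for all features, and the ratio exceeded 1 for 8 of the 12. None of the 6 genes of the mitochondrial carrier and electron transfer group was called, beside 3.35% and 30.9% of all measured features. The carnitine carrier slc25a20 stood at 2.11 (1.94 to 2.29) and etfb at 1.87 (1.76 to 1.99). The ratio exceeded 1 for 5 of the 6, and the exception, hsd17b10, stood at 0.553 (0.485 to 0.630). Among 17 measured regulators 1 was called, where 3.35% of all measured features were called higher in liver and 30.9% in the embryos. It was the fatty acid receptor gene pparda, with 72 embryo and 810 liver reads and 9.86-fold higher (7.74 to 12.7) in liver. Its relative pparaa, the receptor known in mammals for inducing peroxisomal oxidation, had 368 and 991 reads and a ratio of 2.36 (2.09 to 2.67), and ppardb stood at 0.967 (0.850 to 1.1).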

How the data were processed

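Each deposited table gives read counts per gene, per the file headers, as unique reads (1 position) and total reads (also reads with several positions). The authors also deposited RPKM values, which were recomputed here from exon reads, exon length and total gene reads with a largest difference of 0.088 reads, and median coverage, a signal value not used here. Because aligner, annotation, build and strand were not given in the sources used here, coordinates are not printed. They served to find genes whose region overlaps another feature, and reads of overlapping genes cannot be told apart. Such genes were 5 of the 38: slc27a2a, acsl4a, acad11, acox3 and pex19.

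CPM was computed from total gene reads. Intervals of ratios were exact (Clopper-Pearson on the conditional binomial, scipy 1.17.1), and TMM factors came from edgeR 4.0.16. The rule of the calls was checked on simulated counts that held counting error only, with no general shift between the pools. That check cannot address variation between animals or the choice of scaling. Current symbols came from the RefSeq gene table of assembly GRCz12tu, which matched 18979 of 27098 features and all 38 members. Of 95 other pathway symbols 82 were found. Members called, near the call, of an isozyme family or among the 2 highest in RPKM of their role are given in full and the others more briefly; of the other pathway genes, those called and the 2 highest in RPKM in a pool. A few uncalled pathway genes (slc25a20, etfb, hsd17b10, pparaa, ppardb) were named after their values were seen. Of the 38 members, 35 are reported by name, and the others enter counts, sums and medians only. Alternatives were other scalings, read classes, minimums and thresholds. The members and lists were chosen with earlier results of these data known. No values between animals were analysed here.

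Among features with 1 to 10 total exon reads, even numbers made up 53.0% for embryos and 56.2% for liver, and whether mates were counted apart was not stated. Intervals from 0.5 of the reads, junction reads, features found by current symbol and the grouping by compartment were chosen after seeing the data.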

Additional observations from a re-analysis of the deposited data

How the results depend on the processing

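No paired analysis was possible because each source has 1 library. With library totals 4 of the 38 genes were higher in liver, against 18 under TMM and 18 under median-of-ratios size factors, and 14 with a 2-fold threshold. With the 21 features found by current symbol added, 59 genes in all, the liver count of 4 became 6 and the embryo count of 3 became 6. The shares of all measured features called in these directions were 3.35% and 30.9%. The median log2 ratio of 0.79 became 2.14 under TMM and 2.17 under size factors, both by construction, since each adds 1 shift to all ratios. Of the other pathway genes, 33 were higher in liver under either scaling and 22 at 2-fold, against 13, and 8 were higher in embryos at 2-fold, against 2. The share of reads of the 38 genes was 0.186% of unique and 0.180% of exon reads in embryos, and 0.525% and 0.456% in liver. Ratios of 4 genes, pex19 and echdc1 among them, went from below to above 1 under both scalings without a call. Intervals from 0.5 of the reads, a minimum of 50 reads or none, and the other read classes left both counts within 1.5-fold. With library totals the intervals of pex10 and echdc1, genes with few reads, included 1. That of pex2, also with few reads, lay just above 1 (1.002 to 3.01). It included 1 when computed from 0.5 of the reads (0.771 to 3.84). For dao.3, with 0 embryo reads, no ratio was computed under the other scalings and read classes.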

Other observations

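Reads outside annotated exons made up a large share for a few genes. Beside cpt1b, exon reads were 50.4% of the embryo and 78.4% of the liver reads of pex14, and 55.6% and 76.4% of those of acox3, and their ratios were 3.21 and 5.11 with exon reads in place of 2.17 and 3.91. For acsl2 (LOC100332846) 45 liver reads were counted in the gene and 0 in its exons.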
